A study of Saccharomyces cerevisiae with 64 samples.

Results

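The mitochondrial genome of budding yeast, Saccharomyces cerevisiae, was followed through 4 tables of bromodeoxyuridine (BrdU) immunoprecipitation signal. Its bins were all 50 bp bins that the tables number as chromosome 17, and a bin at 0 in every column of a table was to be left out. No such bin existed: all 1716 mitochondrial bins were above 0 in all 13 columns and were kept, against 3.59 to 5.32% of nuclear bins at 0 in a column. The members were 1716 of 243150 bins in 3 of the tables and of 243359 in the double mutant table, about 0.706% of all bins. They cover 85779 bp of the R64 build, end to end, with 46 annotated genes, of which 24 are tRNA genes.

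The study asked how the forkhead transcription factors Fkh1 and Fkh2, which act on the timing of nuclear replication origins, change replication when overexpressed (OE). In the HU table the groups were Fkh1 OE (wild type with pGAL-Fkh1, the gene behind a galactose promoter), Fkh2 OE (wild type with pGAL-Fkh2) and no OE (wild type with pGAL alone), with 3 immunoprecipitated libraries each. In the time course table, Fkh1 OE and no OE cells had no drug, and BrdU at 800 µg/mL was given from 20 to 35 min, from 30 to 45 min or from 40 to 55 min after release, with 2 libraries a group. The double mutant (DM) table held DM Fkh1 OE, which is fkh1delta fkh2delta ars501delta::ARS305 with pGAL-Fkh1, and DM, the same genotype with pGAL alone, with 2 libraries each. The RNR3 table held RNR3 OE, wild type with pGAP-RNR3, a ribonucleotide reductase subunit gene on a non-galactose promoter, and its own no OE control labelled only as wild type, with 2 libraries each. Before release, α-factor at 7.5 nM stopped all cultures in G1, over 3 h in raffinose and a further 2 h in 2% galactose, at 25 °C. In the HU, DM and RNR3 tables release was for 60 min into 0.2 M hydroxyurea (HU), an inhibitor of ribonucleotide reductase, with 400 µg/mL BrdU.

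Every column was the authors' combined value of a group, so no value of BrdU signal below has a replicate error, and no difference between columns could be tested. Read depth behind the columns is unknown, and no source used here says whether Input libraries entered their scale. The unit is relative: the highest nuclear bin was at 1.0 in the no OE column of the HU table, in the DM column and in the RNR3 control column. The tables were made separately, so levels of different tables are given side by side without a ratio. The targeted genes were read first. FKH1 stood at 1458 FPKM in Fkh1 OE cells, 8.23 FPKM in Fkh2 OE cells and 20.9 FPKM in no OE cells in the authors' deposited table. FKH2 stood at 13.3 FPKM in Fkh1 OE cells, 2220 FPKM in Fkh2 OE cells and 14.3 FPKM in no OE cells in that authors' deposited table. In the DM table, 0 of 29 FKH1 bins were at 0 in DM Fkh1 OE and 29 of 29 were at 0 in DM, while 51 of 52 FKH2 bins were at 0 in DM Fkh1 OE and 50 of 52 in DM.

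Yeast mitochondria carry many copies of a small genome of their own that encodes core subunits of the respiratory chain and of ATP synthase, a ribosomal protein, the ribosomal and transfer RNAs and the RNA of RNase P. Its genes are split by long spacers rich in A and T, and COX1, COB and the 21S rRNA gene can hold introns with reading frames of their own. The copies are replicated by the polymerase Mip1 and packaged by Abf2, and their replication is not tied to the firing of nuclear origins in S phase. BrdU is a thymidine analogue and marks new DNA of either genome.

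In HU-arrested cells the mitochondrial genome stood well above the bulk of the nuclear genome. The median mitochondrial signal per bin was 0.0236 in Fkh1 OE, 0.0205 in Fkh2 OE and 0.0199 in no OE cells, against nuclear medians of 0.00615, 0.00460 and 0.00435 in the same columns. This placed the mitochondrial median at 3.85, 4.45 and 4.57 times the nuclear median, and above 89.5%, 93.8% and 92.5% of nuclear bins. The mitochondrial mean was closer to the nuclear mean, at 1.03 times in Fkh1 OE, 1.91 times in Fkh2 OE and 1.20 times in no OE cells. In the DM table the mitochondrial medians were 0.0744 in DM Fkh1 OE and 0.0757 in DM, which were 12.3 and 9.21 times the nuclear medians of 0.00604 and 0.00822. In the RNR3 table they were 0.295 in RNR3 OE and 0.320 in its control, against nuclear medians of 0.151 and 0.158, and thus 1.95 and 2.03 times.

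The mitochondrial share of all summed signal differed between strains of the same table. It was 0.752% in Fkh1 OE, 1.39% in Fkh2 OE and 0.877% in no OE cells under HU, 3.10% in DM Fkh1 OE and 2.11% in DM, and 1.05% in RNR3 OE and 1.33% in its control. This share also depends on nuclear signal. Under HU the mitochondrial means were 0.0242, 0.0210 and 0.0203 in Fkh1 OE, Fkh2 OE and no OE, beside nuclear means of 0.0236, 0.0110 and 0.0169. In DM Fkh1 OE and DM they were 0.0696 and 0.0713, beside 0.0163 and 0.0248. In RNR3 OE and its control they were 0.271 and 0.297, beside 0.188 and 0.162. Mitochondrial bins spread less than nuclear bins in each of the 13 columns, by a margin that differed widely: the coefficient of variation over bins was 19.0% against 399.7% for nuclear bins in no OE cells under HU, 13.1% against 22.2% in Fkh1 OE in the pulse of 40 to 55 min, and 23.0% against 26.7% in the RNR3 control. The highest mitochondrial bin was 1.67 to 4.36 times the lowest.

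**Figure D1:**
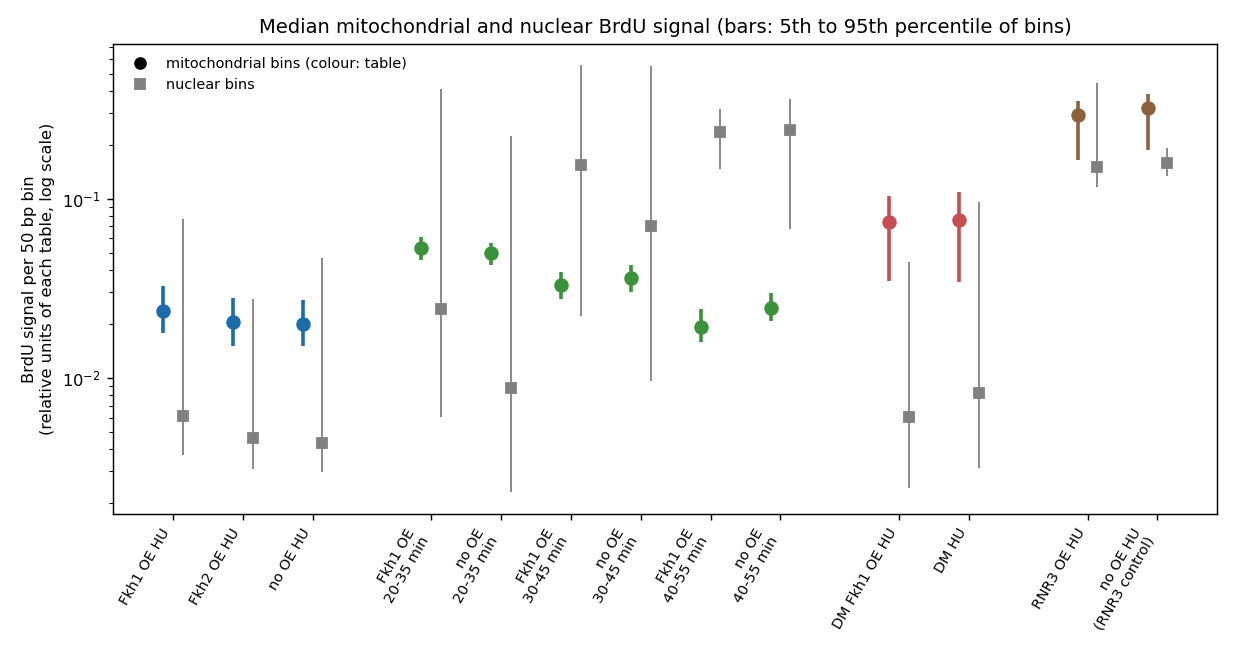
Median BrdU signal per 50 bp bin (log scale, relative units of each table) of mitochondrial bins (circles, coloured by table) and nuclear bins (grey squares) in the 13 columns, with bars from the 5th to the 95th percentile of bins. Mitochondrial medians lie above the nuclear ones in the HU, DM and RNR3 tables, and in the time course they go down over the pulses while the nuclear medians go up.

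Over the pulses without drug, mitochondrial signal went down step by step while nuclear signal climbed. In Fkh1 OE cells the mitochondrial median was 0.0531 in the pulse of 20 to 35 min, 0.0328 in that of 30 to 45 min and 0.0192 in that of 40 to 55 min. In no OE cells it was 0.0498, 0.0361 and 0.0245 over the same pulses. The nuclear medians were 0.0241, 0.155 and 0.237 in Fkh1 OE cells and 0.00875, 0.0708 and 0.243 in no OE cells. The mitochondrial median was therefore above the nuclear median in the first pulse, at 2.20 times in Fkh1 OE and 5.69 times in no OE cells. It was below it in the last pulse, at 0.0813 and 0.101 times. In the pulse of 40 to 55 min only 0.0885% of nuclear bins in Fkh1 OE and 0.460% in no OE cells lay below the mitochondrial median.

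Set against the first pulse, the mitochondrial median of the last pulse was 0.362 times as high in Fkh1 OE cells and 0.493 times in no OE cells. All 1716 mitochondrial bins were at least 2-fold lower in Fkh1 OE cells, beside 5.58% of 230233 nuclear bins, and 919 of 1716 were in no OE cells, beside 1.37% of 229986 nuclear bins. No mitochondrial bin was 2-fold higher, beside 79.8% of nuclear bins in Fkh1 OE and 91.6% in no OE cells. The step from the first to the second pulse was 0.617 times in Fkh1 OE and 0.724 times in no OE cells, and that from the second to the third 0.587 and 0.681 times, so that neither step carried the whole difference. The annotated genes moved together: the fold of the last over the first pulse lay between 0.304 at RPM1, the RNase P RNA gene, and 0.414 at AI1, the first intron reading frame of COX1, in Fkh1 OE cells. In no OE cells it lay between 0.436 at RPM1 and 0.555 at ATP8. In bulk cultures, fewer mitochondrial genomes per cell and less BrdU per genome cannot be told apart, and the part of the nuclear DNA that shared a pool with them was not tested.

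In the strain comparisons the folds of mitochondrial bins lay over a narrower range than those of nuclear bins. The bins did not always share a direction: in DM Fkh1 OE over DM, 732 were higher and 984 lower. The shift of the mitochondrial median was smaller than that of the middle of the nuclear bins in some comparisons. It was larger in others, among them Fkh1 OE over no OE in the last pulse and RNR3 OE over its control. Under HU, the mitochondrial median of Fkh1 OE was 1.19 times that of no OE. All 1716 bins lay above their no OE values, with folds of 1.03 to 1.37, but 0 were past 2-fold in either direction, beside 14.5% of nuclear bins at least 2-fold higher and 0.449% at least 2-fold lower. The median of the folds of single nuclear bins, called the nuclear median fold from here on, was 1.38. Its bins had a 5th to 95th percentile range of 0.852 to 3.18, while the mitochondrial range was 1.10 to 1.27. The ratio of the nuclear medians, the measure used for the mitochondrial median, was 1.41. Divided by the nuclear median of its column, the mitochondrial fold turned to 0.842. The direction of this difference thus depends on the scale on which it is read.

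Fkh2 OE under HU lay closer to no OE, at 1.03 times, with 1316 of 1716 bins above and 400 below. None was past 2-fold, beside 2.45% of nuclear bins higher and 5.3% lower. Set against Fkh1 OE, the Fkh2 OE median was 0.867 times as high, 1714 of 1716 bins lay lower and again none was past 2-fold, beside 0.274% of nuclear bins higher and 17.6% lower. The direction depended on the scale here too: divided by the nuclear median, Fkh2 OE stood at 0.974 times no OE and 1.16 times Fkh1 OE, and divided by the nuclear sum at 1.59 and 1.86 times. The 3 comparisons share columns and are not independent of each other.

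In the time course, Fkh1 OE stood a little above no OE in the first pulse and below it in the last. The mitochondrial fold was 1.07 in the pulse of 20 to 35 min (1571 of 1716 bins higher), 0.909 in that of 30 to 45 min (1602 lower) and 0.784 in that of 40 to 55 min (1716 lower, the highest bin at 0.955). No mitochondrial bin was past 2-fold in any pulse. Beside them, 61.1%, 44.8% and 9.35% of nuclear bins were at least 2-fold higher, and 0.122%, 0.0915% and 0.075% at least 2-fold lower. The nuclear median folds were 2.37, 1.84 and 0.996, and the ratios of the nuclear medians 2.75, 2.19 and 0.975. On either measure the mitochondrial fold lay below the nuclear one in each pulse.

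In the DM table the deposited values put the mitochondrial genome at 0.983 times in DM Fkh1 OE over DM, with 732 bins higher and 984 lower. Divided by the nuclear median the same fold was 1.34, and by the nuclear sum 1.50. No bin was past 2-fold, beside 5.78% of nuclear bins higher and 31.2% lower, and the nuclear median fold was 0.704. RNR3 OE had a mitochondrial median 0.922 times that of its control, with 1595 of 1716 bins lower and none past 2-fold, beside 7.75% of nuclear bins higher and 0.119% lower. The nuclear median fold there was 0.976.

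**Figure D2:**
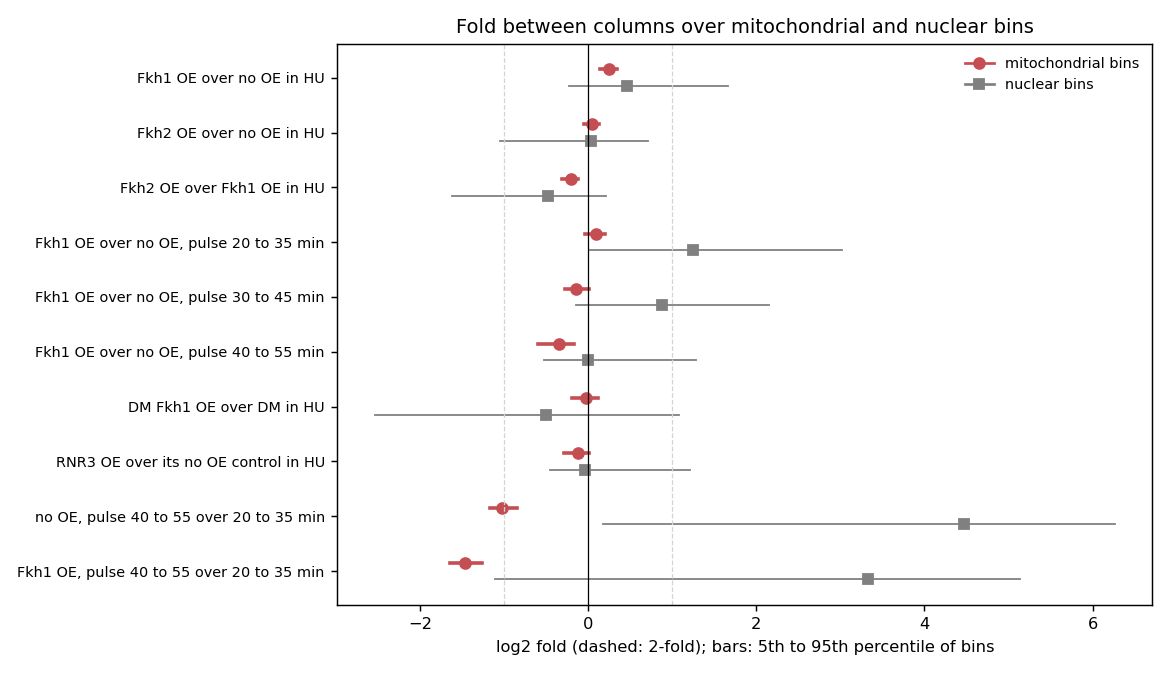
Log2 fold between columns for 10 comparisons, with the ratio of mitochondrial medians (red circles) and the median of the folds of nuclear bins (grey squares). Bars run from the 5th to the 95th percentile of bins, and dashed lines mark 2-fold. In the 8 comparisons of strains the mitochondrial bars lie inside the 2-fold lines and are narrower than the nuclear ones, and the last over the first pulse puts mitochondrial bins left and most nuclear bins right of 0.

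No named gene or reading frame reached a 2-fold difference in the strain comparisons. Over the 22 named mitochondrial genes and reading frames, the fold of Fkh1 OE over no OE under HU ran from 1.11 at VAR1, which encodes a protein of the small mitochondrial ribosomal subunit, to 1.26 at AI1. In the pulse of 40 to 55 min it ran from 0.661 at ATP8, a subunit gene of ATP synthase with only 3 bins, to 0.861 at COX3. DM Fkh1 OE over DM ran from 0.858 at VAR1 to 1.12 at ATP6, and RNR3 OE over its control from 0.816 at ATP6 to 0.994 at OLI1. Bins inside genes and bins outside them gave nearly the same fold, such as 1.21 and 1.17 for Fkh1 OE over no OE under HU and 0.780 and 0.783 in the last pulse.

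The profile along the genome was where the tables parted. For each column, signal was divided by the mitochondrial median of that column, and this quantity is called the relative level from here on. For the 86 tiles of 1 kb it is the mean over bins. For genes and classes of genes it is the median over bins, and for runs of bins and gene ends the mean. In 3 tables the columns had nearly the same profile: Spearman's rho over the 86 tiles was 0.973 to 0.983 among the 3 HU columns, 0.980 between the DM columns and 0.931 between the RNR3 columns. The 6 time course columns were less alike, at 0.688 to 0.869, with 0.696 between Fkh1 OE and no OE in the pulse of 40 to 55 min. The DM and RNR3 tables also resembled each other, with a rho of 0.884 to 0.933 over 4 pairs of columns. The HU table resembled none of the others, with rho between 0.0216 and 0.257 against the time course, between -0.0404 and 0.132 against DM and between -0.118 and 0.0222 against RNR3, although its cells had the same drug and BrdU dose as those of the DM and RNR3 tables. The time course columns stood at -0.275 to 0.0448 against DM and at -0.346 to -0.0241 against RNR3. These values describe 86 points that share libraries, pools and the base composition of each tile, which was not computed here.

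**Figure D3:**
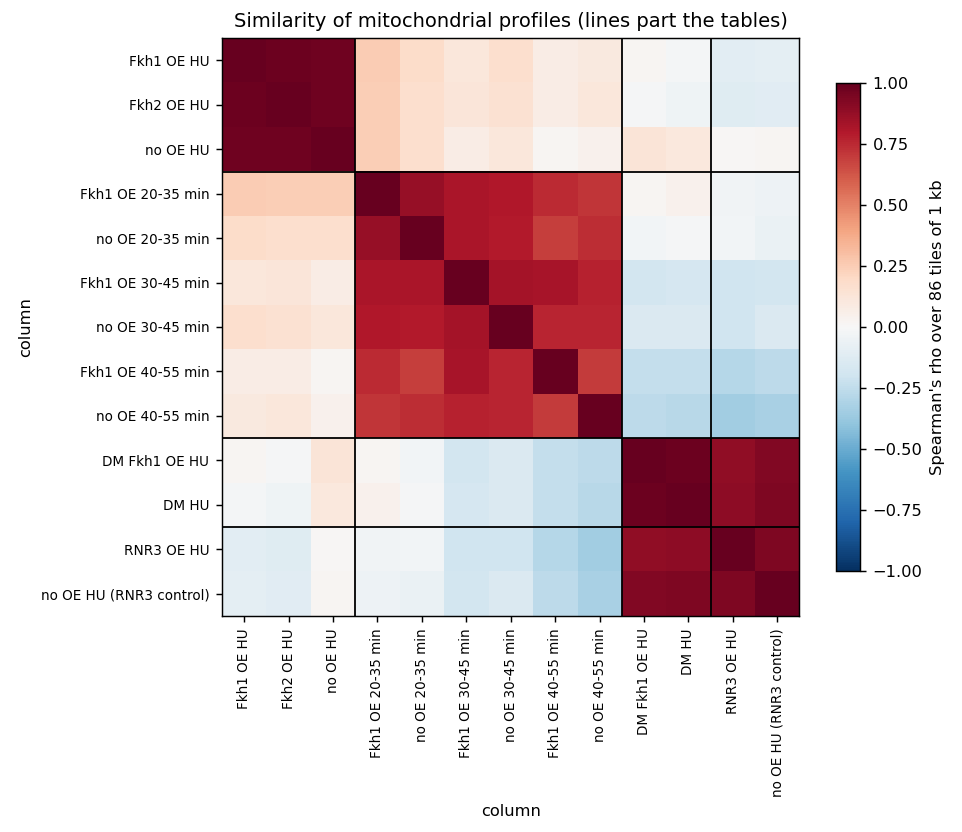
Spearman's rho over 86 tiles of 1 kb between the relative levels of each pair of the 13 columns (78 pairs), with lines between tables. The dark squares on the diagonal are the tables, and the DM and RNR3 tables form a further dark square together.

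**Figure D4:**
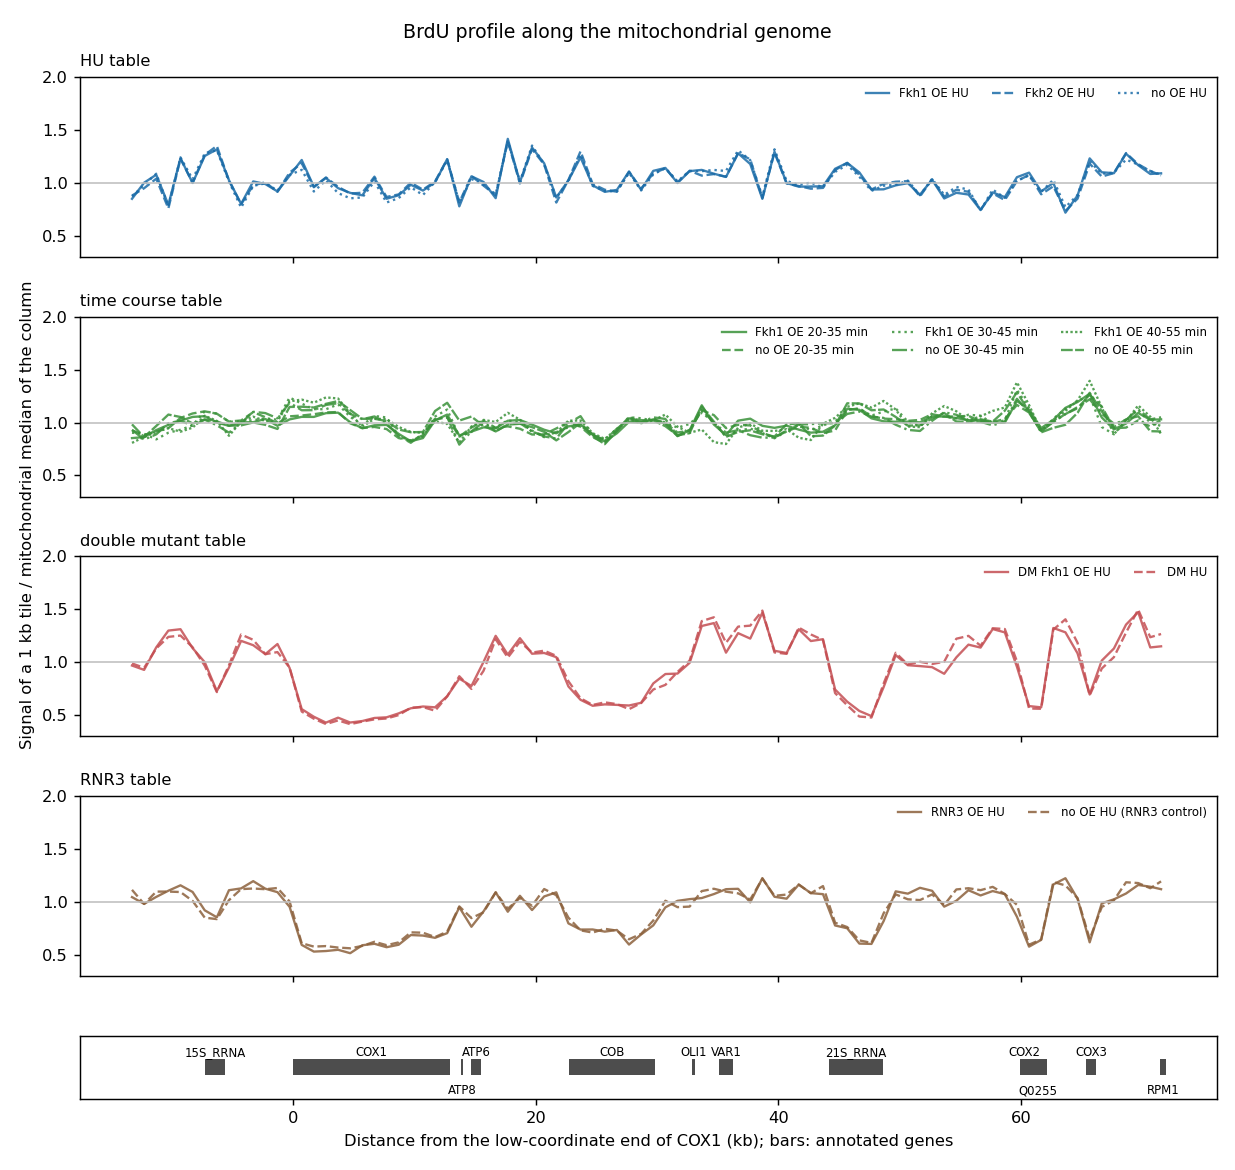
Relative level of 1 kb tiles along the mitochondrial genome in the 4 tables, by distance from the low-coordinate end of COX1 in kb, with annotated genes as bars at the bottom. In the DM and RNR3 tables the lines drop over COX1, COB, the 21S rRNA gene, COX2 and COX3. In the HU and time course tables they show no drop of that depth over these genes. The mean of the time course columns is still lowest within COB, at 39001 to 40000 (0.822), and next within COX1, at 23001 to 24000 (0.852).

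The profiles also differed in how far they reached along the DNA. Between single 50 bp bins 1 kb apart, Pearson's correlation was 0.700 in DM Fkh1 OE and 0.703 in DM. It was 0.650 in RNR3 OE and 0.632 in its control. It was 0.423 to 0.528 in the time course and close to 0 in the HU table, at -0.0445 to -0.0078. The HU profile was thus made of short peaks and dips, and that of DM and RNR3 of long plateaus.

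Genes made up the plateaus of the DM and RNR3 tables. Bins inside protein, rRNA and RNase P RNA genes were 640 of the 1716, or 37.3%, and 1038 lay outside any gene. The median inside genes was 0.522 times that outside in DM Fkh1 OE, 0.506 times in DM, 0.599 times in RNR3 OE and 0.614 times in its control. In the HU table the same ratio was 1.05 in Fkh1 OE, 1.05 in Fkh2 OE and 1.01 in no OE cells, and in the time course it was 1.00 to 1.05. Nuclear genes showed no such split between the tables: leaving out chromosomes III and V, the home chromosomes of ARS305 and ARS501, their ratio was 0.893 in DM Fkh1 OE, 0.869 in DM, 0.977 in RNR3 OE and 0.993 in its control, and 0.793 to 1.02 in the other columns. Of the bins below 0.75 times the mitochondrial median, 565 of 582 lay inside genes in DM Fkh1 OE, 579 of 609 in DM, 484 of 496 in RNR3 OE and 489 of 498 in its control. In the HU table there were 88, 100 and 82 such bins in Fkh1 OE, Fkh2 OE and no OE cells, of which 1, 0 and 0 lay inside genes, and the time course had none. This limit was chosen after the values were seen.

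COX1, which encodes the catalytic core subunit of cytochrome c oxidase, was the longest of these genes (positions 13818 to 26701, introns included, 258 bins). Its relative level was 0.497 in DM Fkh1 OE, 0.484 in DM, 0.590 in RNR3 OE and 0.603 in the RNR3 control. Under HU in the first table it was 0.961 in Fkh1 OE, 0.973 in Fkh2 OE and 0.918 in no OE cells, and over the pulses it was 1.00, 1.08 and 1.05 in Fkh1 OE and 0.984, 1.05 and 1.07 in no OE cells. The 9 columns of the HU and time course tables thus lay above the 4 of the DM and RNR3 tables without overlap. The reading frames of its introns, AI1 to AI5, share its bins and are not independent values: AI4 stood at a mean of 0.460 over the DM columns and 0.570 over the RNR3 columns.

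COB, the gene of cytochrome b (36540 to 43647, 142 bins), was next in length. Its relative level was 0.607 in DM Fkh1 OE, 0.616 in DM, 0.681 in RNR3 OE and 0.713 in the RNR3 control, against 1.00 in Fkh1 OE, 1.01 in Fkh2 OE and 1.01 in no OE cells of the HU table and 0.969 to 0.999 in the time course. Its intron frames BI2, BI3 and BI4 share its bins and stood at means of 0.640, 0.621 and 0.607 over the DM columns and 1.23, 0.991 and 1.04 over the HU columns. The 21S rRNA gene (58009 to 62447, 89 bins), the large ribosomal RNA, stood at 0.586 in DM Fkh1 OE, 0.553 in DM, 0.685 in RNR3 OE and 0.705 in the RNR3 control, against 1.06 to 1.09 in the HU table and 1.06 to 1.14 in the time course. Within it, SCEI, the intron gene of the homing endonuclease I-SceI, stood at means of 0.462 over the DM columns, 0.598 over the RNR3 columns, 0.850 over the HU columns and 1.08 over the time course columns.

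COX2 and COX3, the genes of the other mitochondrially encoded core subunits of cytochrome c oxidase, were divided more widely. COX2 (73758 to 74513, 15 bins) stood at 0.616 in DM Fkh1 OE, 0.595 in DM, 0.575 in RNR3 OE and 0.597 in the RNR3 control, against 1.19 to 1.26 in the HU table and 1.22 to 1.41 in the time course. COX3 (79213 to 80022, 16 bins) stood at 0.655, 0.637, 0.580 and 0.610 in the same 4 columns, against 1.28 to 1.35 in the HU table and 1.21 to 1.38 in the time course. For these genes, short and without introns, the columns of the DM and RNR3 tables lay below the mitochondrial median and those of the other tables above it. ATP6, a membrane subunit gene of ATP synthase (28487 to 29266, 15 bins), had means of 0.660 over the DM columns and 0.661 over the RNR3 columns, against 1.21 over the HU columns and 0.962 over the time course columns. The 15S rRNA gene (6546 to 8194, 33 bins), the small ribosomal RNA, had means of 0.742 over the DM, 0.849 over the RNR3, 1.33 over the HU and 1.05 over the time course columns.

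Not all genes were low in the DM and RNR3 tables. VAR1 (48901 to 50097, 24 bins) stood at 1.09 in DM Fkh1 OE, 1.25 in DM, 1.11 in RNR3 OE and 1.12 in the RNR3 control, with a mean of 1.09 over the HU columns and 0.877 over the time course columns. RPM1 (85295 to 85777, 10 bins) had means of 1.19, 1.16, 1.20 and 0.988 over the DM, RNR3, HU and time course columns. OLI1, the gene of ATP synthase subunit c (46723 to 46953), and ATP8 (27666 to 27812) covered only 5 and 3 bins, and their means over the DM columns were 1.07 and 0.883. The 38 bins of tRNA genes stood at 1.08 over the DM and 1.07 over the RNR3 columns, and the bins outside genes at 1.13 and 1.07.

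**Figure D5:**
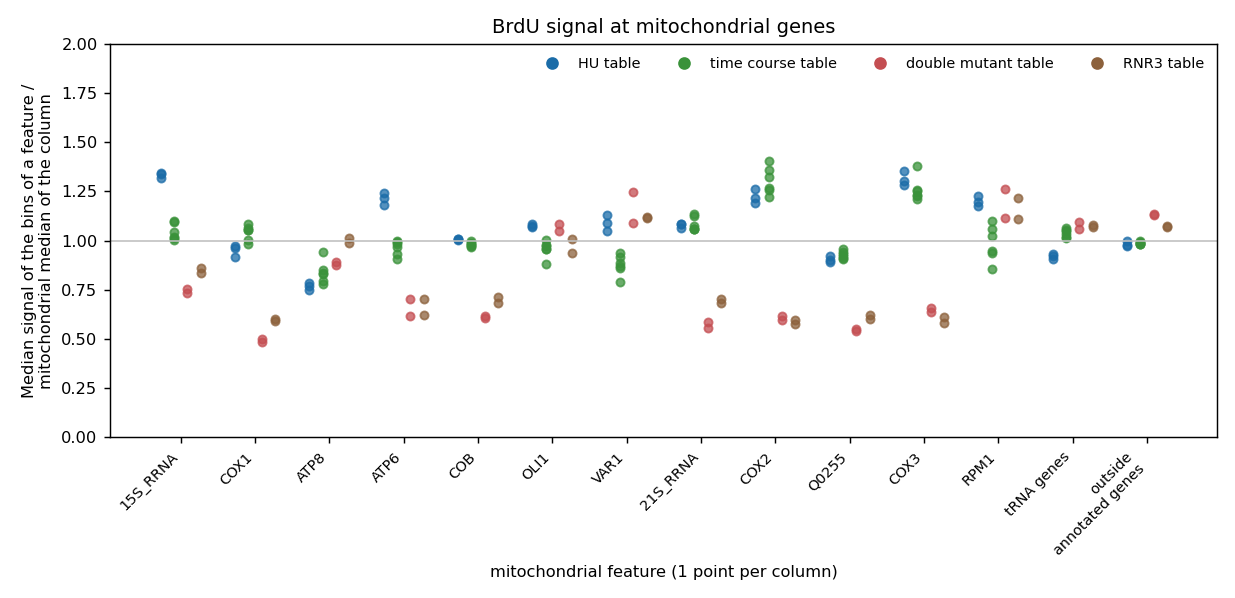
Relative level of mitochondrial genes, tRNA genes and bins outside annotated genes, with 1 point per column, coloured by table (13 columns). COX1, ATP6, COB, the 21S rRNA gene, COX2, Q0255 and COX3 fall into a low set of DM and RNR3 columns and a high set of HU and time course columns, while VAR1, RPM1 and the tRNA genes do not.

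The low plateaus lay over genes, and in the DM table most began and ended near a gene's ends. Runs of bins below 0.75 in the mean over a table's columns, a summary chosen after the values were seen, numbered 7 in the DM table and held 590 bins, 573 of them inside genes. The longest ran from 13801 to 27000, where COX1 lies, at relative levels of 0.517 in DM Fkh1 OE, 0.503 in DM, 0.602 in RNR3 OE and 0.626 in the RNR3 control, with 0.963 to 1.00 in the HU table and 0.987 to 1.07 in the time course. The others lay at COB (36451 to 43350), the 21S rRNA gene (58301 to 62600), COX2 with Q0255, an open reading frame beside it (73701 to 75950), the 15S rRNA gene (7001 to 8050), ATP6 (28401 to 29350) and COX3 (79201 to 80050). The RNR3 table had 12 runs, which held 484 bins, 474 of them inside genes. The longest, from 13801 to 23750, began in the same bin as that of the DM table but stopped short of the end of COX1, at 26701. Further low runs followed in COX1, at 24351 to 25550 (relative level 0.647) and 25651 to 26750 (0.675). In the RNR3 table COB was split into 5 runs, and the run in the 21S rRNA gene began only at 59551, against a gene start at 58009. Of the low bins, 474 were shared, which was 80.3% of the 590 of the DM table and 97.9% of the 484 of the RNR3 table.

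At the low-coordinate ends of the longest genes the DM and RNR3 tables dropped into the gene and the HU table stood higher inside it. At the low-coordinate end of COX1 the 500 bp inside the gene stood at 0.651 times the 500 bp outside it in the DM table and 0.647 times in the RNR3 table, but at 1.25 times in the HU table and 0.919 times in the time course. The same end of COB gave 0.719, 0.717, 1.35 and 1.04 times in these 4 tables, and that of the 21S rRNA gene 0.679, 0.764, 1.26 and 0.948 times. At the high-coordinate end of COX1 the ratios of the DM, RNR3, HU and time course tables were 0.895, 0.778, 1.22 and 1.09 times, and at that of the 21S rRNA gene 0.660, 0.731, 1.23 and 0.936 times. That of COB gave 0.974, 0.752, 1.02 and 0.978 times, so that the DM table showed little step there. The time course was on either side of 1 over the 6 gene ends, between 0.919 and 1.09 times.

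Averaged over all 13 columns, the highest 1 kb tiles were those at 83001 to 84000 (relative level 1.19), 47001 to 48000 (1.13), 82001 to 83000 (1.13), 4001 to 5000 (1.12) and 73001 to 74000 (1.11). Of these the last holds part of COX2 and the other 4 hold no protein or rRNA gene. The 5 lowest were at 22001 to 23000 (0.788), 39001 to 40000 (0.800), 23001 to 24000 (0.815), 24001 to 25000 (0.816) and 19001 to 20000 (0.816), 4 of them within COX1 and the one at 39001 within COB. This ranking pools tables with different profiles. The 5 lowest tiles stood at 0.442 to 0.611 in the DM and 0.587 to 0.733 in the RNR3 table. They stood at 0.877 to 0.981 in the HU and 0.822 to 0.983 in the time course table. Though less deep there, the tiles at 39001 (0.822) and 23001 (0.852) were also the lowest of the time course table. The lowest tiles of the HU table alone, looked up after its values were seen, lay elsewhere: those at 77001 to 78000, 70001 to 71000 and 3001 to 4000 stood at 0.741, 0.744 and 0.777 there, and at 1.34, 1.15 and 1.27 in the DM table.

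The RNA of nuclear genes that keep up mitochondrial DNA was read from polyadenylated RNA of cells held in G1, with 2 libraries a group that no label ties to separate cultures, so that the authors' p-values and q-values may measure technical spread. All 26 genes of the list were found and tested by Cuffdiff in the authors' deposited table. More of them passed the test in Fkh2 OE than in Fkh1 OE, as did more of all genes in the authors' deposited table. In Fkh1 OE over no OE, 2 rose and 1 fell at a q-value below 0.05 in the authors' deposited table, 3 of 26, beside 11% of 6212 genes tested (5.59% higher, 5.39% lower). In Fkh2 OE over no OE, 6 rose and 7 fell in the authors' deposited table, 13 of 26, beside 30.7% of 6208 (13.7% higher, 17% lower). In Fkh2 OE over Fkh1 OE, 2 rose and 4 fell in the authors' deposited table, 6 of 26, beside 18.9% of 6227 (7.24% higher, 11.7% lower). The median log2 folds of the list were -0.09, -0.07 and -0.01, beside 0.00, -0.03 and -0.04 over all genes tested.

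Among proteins that bind and package mitochondrial DNA, ABF2, the gene of its main packaging protein, fell most. It stood at 254.7 FPKM in Fkh2 OE, against 960 FPKM in no OE and 765 FPKM in Fkh1 OE cells in the authors' deposited table, a fold of 0.265 over no OE (q = 0.000327) and of 0.333 over Fkh1 OE (q = 0.000327). In the same authors' deposited table, ILV5, an amino acid synthesis enzyme also found with mitochondrial DNA, rose to 1390.5 FPKM in Fkh1 OE (1.81 times, q = 0.000327) and 1357 FPKM in Fkh2 OE (1.76 times, q = 0.00116), against 770 FPKM in no OE cells. YHM2, a mitochondrial carrier also found there, stood at 308 FPKM in Fkh1 OE (q = 0.000894) and 293 FPKM in Fkh2 OE (q = 0.00456), against 181 FPKM in no OE cells in the authors' deposited table. HSP60, a chaperone, rose 1.75-fold in Fkh2 OE over no OE (q = 0.00116) in the authors' deposited table.

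Of the replication and recombination genes, MIP1, the DNA polymerase, was not called in any comparison of the authors' deposited table, at 17.4 FPKM in Fkh1 OE, 15.5 FPKM in Fkh2 OE and 19.1 FPKM in no OE cells. RPO41, the mitochondrial RNA polymerase, was not called either in the authors' deposited table, at 30.5, 28.9 and 22.2 FPKM in the same order of groups. Its cofactor gene MTF1 fell to 24.0 FPKM in Fkh2 OE, against 38.3 FPKM in no OE cells (q = 0.0207, the authors' deposited table). RIM1, the single-stranded DNA binding protein, stood at 529 FPKM in Fkh2 OE, against 938 FPKM in Fkh1 OE cells (0.564 times, q = 0.000327), and was not called against no OE in the authors' deposited table. MGM101, a recombination protein, fell to 133 FPKM in Fkh2 OE, against 198 FPKM in no OE (q = 0.0185) and 218 FPKM in Fkh1 OE cells (q = 0.00237), in the authors' deposited table. HMI1, a mitochondrial DNA helicase, fell to 0.506 times no OE in Fkh2 OE cells (q = 0.000327) in the authors' deposited table. RRM3, a helicase of nuclear DNA that is also tied to mitochondrial genome upkeep, fell in both, at 6.81 FPKM in Fkh1 OE and 6.08 FPKM in Fkh2 OE, against 13.7 FPKM in no OE cells (q = 0.000327 each, the authors' deposited table).

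Nucleases and repair genes went both ways in Fkh2 OE over no OE. NUC1, the main mitochondrial nuclease, rose 2.18-fold and OGG1, a DNA glycosylase, 2.87-fold in the authors' deposited table (q = 0.000327 each). SUV3, an RNA helicase of mitochondrial RNA turnover, rose 1.71-fold (q = 0.00794) in the authors' deposited table. DIN7, a nuclease, and APN1, an abasic site endonuclease, fell to 0.574 and 0.664 times no OE (q = 0.00964 and 0.0150) in the authors' deposited table. The mitochondrial BrdU median of the same Fkh2 OE strain, measured under HU and not in G1, was 1.03 times that of no OE. Divided by the nuclear median it was 0.974 times, and by the nuclear sum 1.59 times.

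RNA encoded by the mitochondrial genome itself was poorly covered. Yeast mitochondrial messenger RNAs lack long poly(A) tails and the libraries were made from polyadenylated RNA, so these values do not measure the whole transcript pool. Of 42 mitochondrial entries in the authors' deposited table, 15 were tested by Cuffdiff in Fkh1 OE over no OE and in Fkh2 OE over no OE, and 13 in Fkh2 OE over Fkh1 OE. None passed a q-value of 0.05 against no OE, beside 11% of all genes tested in Fkh1 OE and 30.7% in Fkh2 OE, where 1 entry in each comparison had an unadjusted p-value below 0.05 in the authors' deposited table. OLI1 was the 1 entry called in Fkh2 OE over Fkh1 OE, beside 18.9% of all genes tested, at 14106.5 FPKM against 8909 FPKM (1.58 times, q = 0.00639), with 12374 FPKM in no OE cells, in the authors' deposited table. The joint entry of COX1 and its intron frames stood at 140 FPKM in Fkh1 OE, 207 FPKM in Fkh2 OE and 145 FPKM in no OE cells in the authors' deposited table, and was not called.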

How the data were processed

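Genomic DNA of 58 libraries (29 immunoprecipitated, 29 Input) was measured by quantitative BrdU immunoprecipitation, in which, per the labels' protocols, barcoded samples were pooled in equal amounts before the pulldown. Reads were handled with Bowtie2, SAMtools and bedtools on build R64, per the submitters' processing notes. The authors deposited BrdU signal per 50 bp bin, with 1 combined column a group; the way libraries were joined, smoothed and put on 1 scale is not stated in the sources used here. Of mitochondrial bins, 25.3 to 32.8% had exactly the deposited value of the bin before them (no tolerance), so neighbouring bins are not independent. In G1 RNA (6 libraries), the authors deposited FPKM per group with p-values and q-values, made with TopHat2, Cufflinks and Cuffdiff per the submitters' processing notes; folds were recomputed here from the FPKM values.

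Levels, folds of medians, Spearman's rho over 1 kb tiles (at least 10 bins) and medians over genes of the RefSeq R64 table were computed with Python 3.11.15, pandas 2.3.3, numpy 2.4.6 and scipy 1.17.1. A bin counted as past the size rule at a fold of at least 2. Bins belong to a gene by their position in the tables. The scripts were tested on simulated data. No column matched no sample (0 such columns). The planned permutation tests over single libraries could not be run, because the columns combine them, and the planned exon, intron, replication origin and GC analyses are not analysed here, because no genome sequence was used.

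Named were every mitochondrial protein, rRNA and RNase P RNA gene, the 5 highest and 5 lowest tiles, and genes of the 26-gene maintenance list with a q-value below 0.05 in any comparison, with MIP1, RPO41, ABF2, RIM1 and MGM101 in any case. The members and lists were chosen with earlier results of these data known. In the RNR3 table both libraries of a group carry the same barcode label. Alternatives covered the mean, scaling to the nuclear median or sum, tiles, bins inside genes, bins above 0 and the RNA threshold.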

Additional observations from a re-analysis of the deposited data

Results flagged for a closer look

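The mitochondrial fold of Fkh1 OE over no OE lay on opposite sides of 1 at the ends of the time course. It was 1.07 in the pulse of 20 to 35 min, where 1571 of 1716 bins were higher, and 0.784 in the pulse of 40 to 55 min, where all 1716 bins were lower. It was singled out because the same comparison went one way in one pulse and the other way in another. The difference was not tested, since each group is 1 combined column. Divided by the nuclear median of each column, both folds lay below 1, at 0.387 and 0.805.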

How the results depend on the processing

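Scaling decided the direction of several mitochondrial folds. After division by the nuclear median, the fold of Fkh1 OE over no OE under HU was 0.842, of Fkh2 OE over no OE 0.974 and of Fkh2 OE over Fkh1 OE 1.16. It was 0.387 in the pulse of 20 to 35 min, 0.416 in that of 30 to 45 min, 1.34 for DM Fkh1 OE over DM, 0.0178 for the last over the first pulse in no OE and 0.0369 in Fkh1 OE cells. After division by the nuclear sum the same values were 0.854, 1.59, 1.86, 0.501, 0.667, 1.50, 0.0840 and 0.129, and RNR3 OE over its control was 0.796. The nuclear signal itself differs between these columns, and the cause was not tested. Means in place of medians, 1 kb tiles and bins inside genes moved none of the 10 folds by more than 1 SD over tiles. Even so, DM Fkh1 OE over DM went from 0.983 to 1.01 over bins inside genes, and so changed direction. The setting of bins above 0 could move no fold, because all 1716 bins were above 0. Keeping only the middle 80% of tiles, ranked by mean relative level over the same 13 columns, left 6 of 10 table pairs within 0.1 of their rho. It moved the median rho of HU with DM to -0.357, HU with RNR3 to -0.413, the time course with DM to -0.370 and with RNR3 to -0.381. Dropping tiles by a mean of the compared columns can itself lower rho, so these values do not show opposed profiles. At an unadjusted p-value below 0.05, 7 maintenance genes in place of 3 were called in Fkh1 OE over no OE, and the counts of the other 2 RNA comparisons stayed within 1.5 times. No paired analysis was possible because each column combines the libraries of a group; for the same reason leaving out single replicates was not run, and neither was the GC relation. Depth is unknown, so no counting error can be given for any bin.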

Other observations

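The short dips of the HU table lay between genes, and in part where the DM table was high. In the mean over its 3 columns, 85 bins in 12 runs lay below 0.75 times the mitochondrial median, 0 of them inside protein, rRNA or RNase P RNA genes, and 131 bins in 14 runs lay above 1.33 times, 41 of them (31.3%) inside such genes, which hold 37.3% of all mitochondrial bins. The lowest run, at 51801 to 52200 between genes, stood at 0.609 in Fkh1 OE, 0.583 in Fkh2 OE and 0.606 in no OE cells. In the same 400 bp, DM Fkh1 OE stood at 1.44, DM at 1.63, RNR3 OE at 1.20 and the RNR3 control at 1.14, and the time course at 0.858 to 1.01. The run lies inside one of the longest high runs of the DM table, at 51551 to 52850. Of the low bins of the HU table, 26 were among the 160 high bins of the DM table, which is 30.6% of the low bins and 16.25% of the high bins, and 0 were among its 590 low bins. Over all mitochondrial bins, 9.32% were high and 34.4% low in the DM table. These shares are not matched for position: 573 of the 590 low bins but only 2 of the 160 high bins of the DM table lay inside such genes. With all 85 low bins of the HU table outside such genes, little overlap with the DM low bins was possible. The shares over bins outside genes were not computed. The high bins of the HU table did not mirror the overlap of its low bins. Of 131, 16 (12.2%) were high and 33 (25.2%) low in the DM table.

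The longest low run of the HU table, at 3151 to 3850, stood at 0.696 in Fkh1 OE, 0.668 in Fkh2 OE and 0.689 in no OE cells, against 1.31 in DM Fkh1 OE and 1.25 in DM. A run at 77001 to 77550, around the tRNA gene tF(GAA)Q, stood at 0.628, 0.648 and 0.683 in the 3 HU columns, against 1.28 in DM Fkh1 OE and 1.37 in DM. The highest runs of the HU table were at 50551 to 51500 and 31001 to 31750, with means of 1.49 and 1.50, and a run inside the 15S rRNA gene at 6601 to 7200 stood at 1.43 in Fkh1 OE, 1.47 in Fkh2 OE and 1.46 in no OE cells. The time course had a single high run, at 78951 to 79300 beside the low-coordinate end of COX3, at 1.27 to 1.42 over its 6 columns, where the HU columns stood at 0.910 to 0.947. These runs were picked after the values were seen, and the base composition of the stretches was not computed.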
